A study of Homo sapiens and Mus musculus with 24 samples.

Results

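The RNAs of 10 genes of mitosis and cell proliferation were followed across 4 cell types with and without UV irradiation: MKI67, ASPM, CENPE, CENPF, TOP2A, CCNB1, CDK1, PLK1, AURKA and BUB1. The genes were taken by name from a list of proliferation genes, in mouse by the same symbol, and all 10 were found among the 58381 genes of the human files and the 53715 of the mouse files. RNA came from the human hepatocellular carcinoma line HepG2, the human embryonic kidney line HEK293 (HEK293T in the culture methods), the mouse neuroblastoma line Neuro2a and hippocampal neurons of E16.5 mouse embryos in primary culture (HippCulture). Each of these was extracted from nonirradiated cells (UVm) and from cells irradiated with UV on ice just before lysis (UVp), in 3 samples per group and 24 in all. UV light links RNA to the proteins bound to it, and linked RNA leaves the aqueous phase during phenol-based extraction, so the irradiated libraries hold the RNA that stayed in that phase. The lines were continuous cultures, whereas the hippocampal culture was treated with cytosine arabinoside, an inhibitor of DNA synthesis, to deplete glia.

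Mitosis is run by a small set of kinases and carried out by the spindle, the kinetochores and the condensed chromosomes. CDK1 bound to cyclin B1, the CCNB1 product, drives entry into mitosis, PLK1 and AURKA build and orient the spindle, and BUB1 holds back chromosome separation until kinetochores are attached. CENPE is a motor at the kinetochore, CENPF is a large kinetochore protein, ASPM sits at the spindle poles and is mutated in primary microcephaly, TOP2A untangles sister DNA, and the Ki67 protein encoded by MKI67 coats mitotic chromosomes and marks cycling cells. Their transcripts accumulate late in the cell cycle and are low in cells that have left it, as neurons have. Many of these genes carry CCAAT boxes, bound by the NF-Y factor, and a cell cycle genes homology region (CHR), bound by complexes that silence them in resting cells.

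Genome positions are given for 4 of the genes on which the UV results turn. ASPM (ENSG00000066279.17) spans chr1:197084128-197146694 on the minus strand of hg38 in 28 exon blocks, and mouse Aspm (ENSMUSG00000033952.14) spans chr1:139454772-139494091 on the plus strand of mm10 in 27. CDK1 (ENSG00000170312.15) lies at chr10:60778331-60794852 on the plus strand and mouse Cdk1 (ENSMUSG00000019942.13) at chr10:69335146-69352938 on the minus strand. CCNB1 (ENSG00000134057.14) lies at chr5:69167010-69178245 and PLK1 (ENSG00000166851.14) at chr16:23677656-23690367, both on the plus strand. All values count reads over the exons of a gene.

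Promoter windows are shown for 3 of the genes in both species, since all 10 genes differed in the same direction between Neuro2a and the hippocampal culture. The windows run from 120 bases before to 30 bases after a RefSeq start, which is that of a promoter entry in human and of the gene in mouse and need not be the gene start given above, with CCAAT boxes and CHR-like letters in capitals, both searched on either strand. The CHR-like letters were TTTGAA and its variants, of which TTTAAA stands in the CCNB1 windows. A further variant searched was TTCGAA. In the human MKI67 window a CHR match and a CCAAT match share bases. Human sequences are from RefSeq on GRCh38.p14 and mouse sequences from RefSeq on GRCm38.p6, the build called mm10.
Mouse Mki67, chr7:135716421-135716570, minus strand: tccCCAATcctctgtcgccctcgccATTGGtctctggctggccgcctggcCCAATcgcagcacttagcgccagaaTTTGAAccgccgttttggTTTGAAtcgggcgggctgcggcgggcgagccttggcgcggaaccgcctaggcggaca
Human MKI67, chr10:128126394-128126543, minus strand: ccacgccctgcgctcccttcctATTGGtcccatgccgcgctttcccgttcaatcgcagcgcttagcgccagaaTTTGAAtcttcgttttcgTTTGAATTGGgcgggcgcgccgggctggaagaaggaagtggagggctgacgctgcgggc
Mouse Ccnb1, chr13:100786457-100786606, minus strand: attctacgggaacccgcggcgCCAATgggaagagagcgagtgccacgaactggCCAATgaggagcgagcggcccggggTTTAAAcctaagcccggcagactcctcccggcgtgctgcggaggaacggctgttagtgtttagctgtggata
Human CCNB1, chr5:69167030-69167179, plus strand: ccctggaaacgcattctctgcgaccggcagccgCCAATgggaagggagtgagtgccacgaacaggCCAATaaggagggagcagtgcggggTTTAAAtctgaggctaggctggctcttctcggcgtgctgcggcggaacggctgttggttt
Mouse Cdk1, chr10:69352883-69353032, minus strand: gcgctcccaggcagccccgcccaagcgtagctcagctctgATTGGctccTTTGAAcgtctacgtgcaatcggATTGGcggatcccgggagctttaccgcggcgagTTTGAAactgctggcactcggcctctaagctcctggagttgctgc
Human CDK1, chr10:60778358-60778507, plus strand: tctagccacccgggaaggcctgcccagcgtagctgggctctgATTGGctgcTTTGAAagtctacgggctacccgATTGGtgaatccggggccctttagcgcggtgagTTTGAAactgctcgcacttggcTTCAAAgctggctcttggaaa

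Both kinds of match occurred in the windows of 9 of the 10 mouse genes, all but Aurka, against 3.64% of all 21774 mouse windows of the same length. In human, 7 of the 9 genes with an entry held both, all but CENPE and TOP2A, against 3.11% of all 35116 human windows, and AURKA had no entry. CDK1 had 2 human entries, of which the one printed held both kinds of match and the other held neither. Counted from these RefSeq starts, CHR-like letters began at positions -71 and -15 in mouse Cdk1 and at -69 and -13 in the human gene. These matches are letters in a window and were not measured as binding.

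The deposited values are raw read counts per gene, and the libraries held 36573473 to 53511592 counts for HepG2, sequenced on another instrument model, and 6910907 to 11188033 for the other cell types. The 8 hepatocyte markers summed to 59285 to 65120.5 TPM (a level per length, from counts per exon length, scaled to the same sum over nuclear protein-coding genes in each library) in nonirradiated HepG2, and the 6 sympathoadrenal markers to 311 to 324 TPM in Neuro2a. No marker list was held for HEK293, in which none of the hepatocyte markers reached 1 TPM. The 6 neural progenitor markers summed to 505 to 778 TPM there, and most of that sum was VIM. The same markers summed to 821 to 887 TPM in nonirradiated Neuro2a, again mostly Vim. A sum over this list was thus not particular to HEK293 or to the hippocampal culture. In the nonirradiated hippocampal culture the 8 neuron markers summed to 4887 to 5136 TPM. It also held all 7 astrocyte markers, at 779.6 to 835 TPM, all 7 oligodendrocyte lineage markers, at 172 to 219 TPM, and 5 of the 6 neural progenitor markers at 1 TPM or more, at 331 to 406 TPM.

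The baseline comparison asked how the 10 genes stood in a cycling line and in the neuronal culture of the same species. All 10 were higher in nonirradiated Neuro2a than in the nonirradiated hippocampal culture, by 7.06-fold for Plk1 to 27.7-fold for Cenpf, with a median difference of 4.205 on the log2 scale (edgeR's quasi-likelihood test on all 12 mouse libraries, adjusted p at most 4.41e-11). Of all 20940 genes tested in this contrast 40.3% were higher and 39.6% lower, and the 10 genes lay at the 90.1 to 96.2 percentile of its log2 differences. None of the 10 was lower, at an unadjusted p under 0.05 or with DESeq2 either. In bulk RNA, fewer cycling cells and less of these RNAs per cell cannot be told apart, and the part of the glial and progenitor cells in the remaining signal was not tested.

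The spindle and chromosome genes showed the gap in every sample. Top2a, the most abundant of the 10 in both mouse cell types, had 599, 523 and 419.5 TPM in the nonirradiated Neuro2a samples and 28.05, 19.9 and 25.8 TPM in the hippocampal samples. For Mki67 the values were 151, 126 and 106 TPM in Neuro2a and 19.0, 12.2 and 16.9 TPM in the hippocampal culture. Cenpf had 133, 131 and 94.0 TPM against 5.87, 4.36 and 4.93 TPM. The lowest Neuro2a sample was thus well above the highest hippocampal sample for each of these genes. Aspm and Cenpe differed by 3.82 ± 0.15 and 3.36 ± 0.18 on the log2 scale (SE, n = 3 per group).

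The cyclin and the kinases were also apart in every sample given. Cdk1 had 179.8, 159.7 and 139 TPM in Neuro2a and 6.26, 7.40 and 8.12 TPM in the hippocampal culture, and Ccnb1 278, 266 and 187 TPM against 15.7, 9.17 and 13.8 TPM. Bub1, the lowest of the 10 in the hippocampal culture, had 107, 103 and 74.4 TPM against 4.84, 3.45 and 3.84 TPM. Plk1 and Aurka differed by 2.82 ± 0.26 and 3.94 ± 0.22 on the log2 scale. For Plk1, 7.09% of exon bases are shared with a gene on the other strand, and the counting was not told to use strand.

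**Figure D1:**
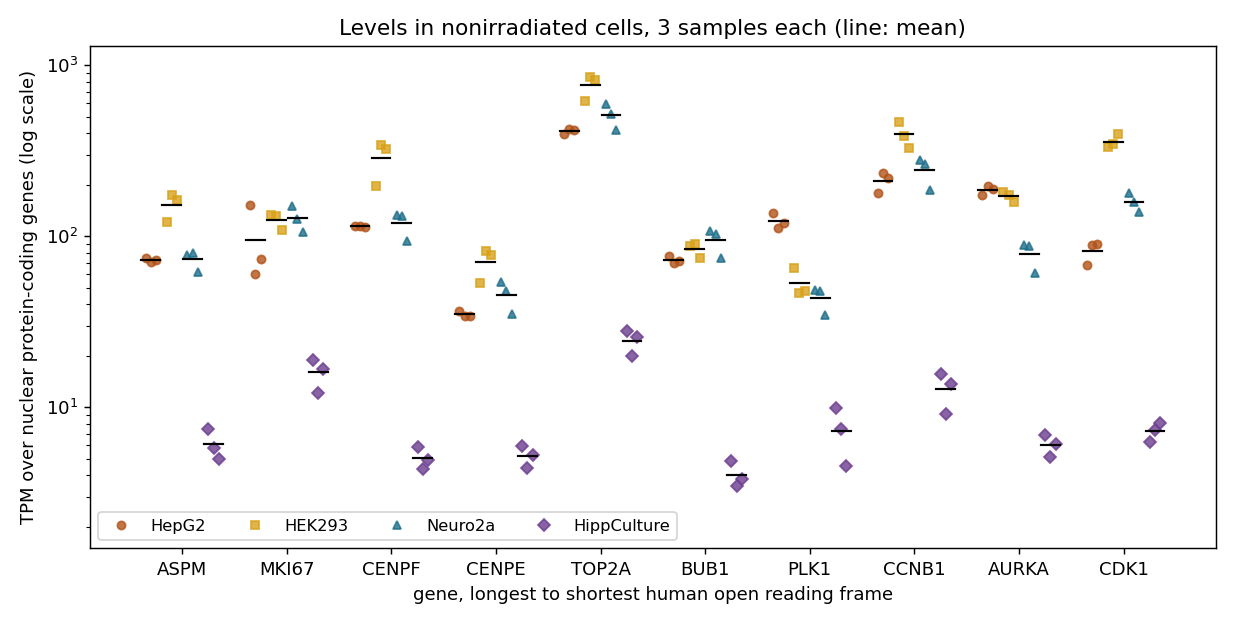
Level of each gene in nonirradiated cells, in TPM over nuclear protein-coding genes on a log axis, with 1 point per sample, 3 samples per cell type, and a line at the mean. The hippocampal culture lies below the 3 lines for all 10 genes, with means from 4.04 TPM for BUB1 to 24.6 TPM for TOP2A.

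Per length, TOP2A was the highest of the 10 genes in each of the nonirradiated groups. Its mean was 763 ± 128 TPM for HEK293, 514 ± 89.9 for Neuro2a, 413 ± 15.6 for HepG2 and 24.6 ± 4.23 for the hippocampal culture (SD, n = 3). CCNB1 followed in the 3 lines, with 212 ± 28.8 TPM in HepG2, 395 ± 68.1 in HEK293 and 244 ± 49.8 in Neuro2a, whereas Mki67 was second in the hippocampal culture with 16.01 ± 3.49 TPM and overlapped between samples with Ccnb1 with 12.9 ± 3.34 TPM. At the low end were CENPE in HepG2, with 35.2 ± 1.38 TPM, and PLK1 in HEK293 and Neuro2a, with 53.1 ± 10.6 and 43.8 ± 7.75 TPM. In HEK293 the levels of CCNB1 and CDK1, 395 ± 68.1 and 359 ± 31.9 TPM, overlapped between samples, as did those of Mki67 and Cenpf in Neuro2a. Among protein-coding genes the 10 stood at a median percentile of 91.5 in HepG2, 94.85 in HEK293 and 92.8 in Neuro2a, and of 48.95 in the hippocampal culture. Human and mouse levels come from different annotations and were not tested against each other.

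The human lines differed in which of the genes was high. PLK1 was higher in nonirradiated HepG2 than in nonirradiated HEK293, by 1.496 ± 0.19 on the log2 scale (edgeR adjusted p = 3.70e-06), and so was AURKA by 0.42 ± 0.13 (edgeR adjusted p = 0.0090), although AURKA was at -0.11 when counts were scaled to library totals alone. CDK1 was lower by 1.81 ± 0.17 on the TMM-scaled log2 scale, and CENPF, ASPM, CENPE, CCNB1 and TOP2A were lower too, with log2 differences from -1.02 to -0.57 (edgeR adjusted p at most 0.0080). Thus 2 genes were higher and 6 lower, where 40.6% and 36.4% of the 23830 genes tested were. For CDK1 the values were 68.0, 88.5 and 90.8 TPM in HepG2 and 333, 348 and 394 TPM in HEK293. The sequencer and the depth changed with the line and cannot be told apart from it.

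MKI67 was uneven in nonirradiated HepG2. Its level was 152 TPM in replicate 1 and 60.7 and 73.3 TPM in the others, with raw counts of 11154, 7564 and 7008. Of the other 9 genes none was as uneven, and CCNB1 and CDK1 were at their lowest there, with 180 and 68.0 TPM. MKI67 did not differ between the lines past the threshold with all samples (log2 difference -0.13 ± 0.21, edgeR adjusted p = 0.60). It was lower in HepG2, at -0.54, without that sample (edgeR adjusted p = 0.0021) and at -0.67 with library totals alone (edgeR adjusted p = 0.0082). For BUB1 the log2 difference was 0.08 ± 0.12 (edgeR adjusted p = 0.56), and -0.46 with library totals alone (edgeR adjusted p = 0.0030).

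The UV comparison asked how the reads of these RNAs in the aqueous phase changed after irradiation. From MALAT1 by RT-qPCR and northern blot, the paper proposes that bonds made by UV also hindered reverse transcription. Loss from the phase and loss in reverse transcription were not told apart here. Log2 fold changes are irradiated over nonirradiated and, after TMM scaling, relative to the bulk of genes in the same cells. With scaling to library totals alone the median of all genes moved on the log2 scale by -0.54 in the hippocampal culture, -0.76 in HEK293, -1.19 in Neuro2a and -1.31 in HepG2, and no gene of the 10 rose in any cell type. In the 3 lines the same 5 genes fell: ASPM, CENPE, CENPF, MKI67 and TOP2A. These are the 5 with the longest open reading frames in both species, 4593 to 10653 nt in human and 4584 to 9531 nt in mouse. The other 5 have frames of 891 to 3255 nt in human and 891 to 3177 nt in mouse. None of them fell past the threshold after TMM scaling with the filter of 0.5 CPM in nonirradiated samples. BUB1 did fall in HepG2, at -0.16, when only genes with at least 10 counts in every sample were kept (edgeR adjusted p = 0.024). With library totals alone CDK1, AURKA and BUB1 fell in HepG2, CDK1 and BUB1 in HEK293, and Ccnb1, Cdk1 and Bub1 in Neuro2a.

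In HepG2 the spindle pole gene ASPM and the kinetochore genes CENPE and CENPF fell. ASPM had 82.7, 87.9 and 89.4 CPM (read counts relative to the TMM-scaled library total) in the nonirradiated samples and 35.7, 34.0 and 33.8 CPM in the irradiated samples. CENPE went from 35.4, 37.2 and 36.8 CPM to 21.6, 18.5 and 19.1 CPM, and CENPF from 136, 154 and 151 CPM to 91.0, 80.0 and 86.6 CPM. The groups did not overlap for any of these genes, and the log2 fold changes were -1.33 ± 0.07, -0.88 ± 0.08 and -0.78 ± 0.08 (SE, n = 3 per group, edgeR adjusted p = 4.21e-07, 9.86e-06 and 2.28e-05). TOP2A fell from 259.9, 315 and 304 CPM to 196, 189 and 192 CPM, a log2 fold change of -0.61 ± 0.09 (edgeR adjusted p = 1.93e-04). MKI67 fell by 0.82 ± 0.25 on the log2 scale (edgeR adjusted p = 0.015) and by 0.47 without nonirradiated replicate 1, and with irradiated replicate 1 or 2 left out its edgeR adjusted p was 0.0505 and 0.054. In all, 5 of the 10 genes fell in HepG2, where 40.7% of the 20117 genes tested fell.

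The short kinase and cyclin RNAs of HepG2 went the other way. CCNB1 had 46.8, 68.9 and 63.8 CPM in the nonirradiated samples and 139, 139 and 134 CPM in the irradiated samples, and PLK1 had 66.5, 61.1 and 64.8 CPM and 145, 144 and 148 CPM. AURKA went from 52.3, 65.7 and 62.6 CPM to 118, 112 and 111 CPM. Every irradiated sample lay above every nonirradiated sample for the 3 genes, which rose by 1.196 ± 0.13, 1.18 ± 0.07 and 0.92 ± 0.09 on the TMM log2 scale (edgeR adjusted p = 3.32e-05, 6.20e-07 and 2.06e-05) and were at -0.11, -0.12 and -0.39 with library totals alone. Of all genes tested 38.1% rose. CDK1 and BUB1 had log2 fold changes of 0.25 ± 0.14 and 0.12 ± 0.06 (edgeR adjusted p = 0.13 and 0.11). For PLK1, 12.5% of exon bases are shared with genes on the other strand, ERN2 and a lncRNA.

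HEK293 gave the same division with more spread. ASPM fell from 221, 294 and 264 CPM to 65.6, 103 and 93.7 CPM, by 1.57 ± 0.19 on the log2 scale (edgeR adjusted p = 2.20e-04). CENPE and CENPF fell by 1.29 ± 0.19 and 1.14 ± 0.25 (edgeR adjusted p = 5.13e-04 and 0.0045), and TOP2A, at 663, 847 and 784 CPM before and 296, 527 and 446 CPM after irradiation, by 0.85 ± 0.21 (edgeR adjusted p = 0.0085). MKI67, the RNA with the longest summed exons, fell least, by 0.49 ± 0.15, and lost its call without nonirradiated replicate 1 or 2 or irradiated replicate 2 or 3 (edgeR adjusted p = 0.054 to 0.080). It passed with replicate numbers as a block, at -0.48 ± 0.08 (edgeR adjusted p = 4.03e-07). The 5 genes that fell compare with 26.4% of the 20472 genes tested. Irradiated replicate 1 was the lowest of its group for ASPM, CENPE, CENPF and TOP2A, and nonirradiated replicate 1 was the lowest of its own.

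The 3 genes that rose in HEK293 were those that rose in HepG2. CCNB1 had 199.5, 153 and 126 CPM in the nonirradiated samples and 304, 259.8 and 212 CPM in the irradiated samples. PLK1 had 52.0, 34.0 and 33.7 CPM and 91.4, 58.3 and 51.9 CPM, so that its groups just met. AURKA had 88.7, 78.9 and 69.0 CPM and 92.5, 119 and 106 CPM. Their log2 fold changes were 0.70 ± 0.20, 0.75 ± 0.25 and 0.43 ± 0.15 (edgeR adjusted p = 0.017, 0.030 and 0.041), against -0.07, -0.03 and -0.33 with library totals alone, and 24.2% of all genes tested rose. None of the 3 passed without nonirradiated replicate 2 or without nonirradiated replicate 3, when edgeR adjusted p was 0.056 to 0.14. PLK1 also lost its call without irradiated replicate 1, and AURKA without irradiated replicate 2 or 3 (edgeR adjusted p = 0.064 to 0.11). With only genes of at least 10 counts in every sample kept, PLK1 and AURKA did not pass (edgeR adjusted p = 0.056 and 0.086), nor did AURKA with the 0.5 CPM filter taken over all samples (edgeR adjusted p = 0.058). CDK1, at -0.01 ± 0.17, and BUB1, at -0.08 ± 0.15, did not pass (edgeR adjusted p = 0.95 and 0.68). CCNB1, PLK1 and AURKA all passed with replicate numbers as a block, at 0.71 ± 0.07, 0.74 ± 0.08 and 0.43 ± 0.08 (edgeR adjusted p at most 1.45e-05).

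In Neuro2a the long transcripts fell again. Aspm had 128, 132 and 100.1 CPM without and 48.6, 55.3 and 37.2 CPM with irradiation, and Top2a had 762, 672 and 524 CPM and 515, 399 and 309 CPM. Cenpf went from 290.4, 288 and 201 CPM to 182, 164 and 129.8 CPM. Samples of the groups did not overlap for these genes, with log2 fold changes of -1.35 ± 0.14, -0.68 ± 0.17 and -0.71 ± 0.15 (edgeR adjusted p = 1.83e-06, 0.0031 and 9.37e-04). Cenpe and Mki67 fell by 0.63 ± 0.19 and 0.46 ± 0.15 with samples that overlapped (edgeR adjusted p = 0.0096 and 0.019), and Mki67 lost its call without nonirradiated replicate 1 or irradiated replicate 2 or 3 (edgeR adjusted p = 0.062 to 0.091). Both passed with replicate numbers as a block, at -0.64 ± 0.09 and -0.46 ± 0.07 (edgeR adjusted p = 2.64e-12 and 3.72e-10). Of the 17425 genes tested 33.0% fell and 28.9% rose. Replicate 3 was the lowest sample of both groups for all 10 genes.

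Of the short RNAs Cdk1, Aurka and Plk1 rose in Neuro2a, and Ccnb1 did not pass. Cdk1 had 125, 112 and 94.9 CPM without and 222, 179.5 and 136 CPM with irradiation, and Aurka had 32.0, 31.6 and 21.4 CPM and 57.2, 57.6 and 36.1 CPM. Plk1, the lowest of the 10, had 15.03, 15.11 and 10.6 CPM and 34.8, 23.0 and 15.2 CPM, from raw counts of 74 to 207. The log2 fold changes of Cdk1, Aurka and Plk1 were 0.69 ± 0.15, 0.82 ± 0.18 and 0.84 ± 0.23 (edgeR adjusted p = 0.0014, 0.0012 and 0.0060) and -0.50, -0.37 and -0.34 with library totals alone. The values of Ccnb1 and Bub1 were 0.10 ± 0.19 and -0.13 ± 0.16 (edgeR adjusted p = 0.66 and 0.50). Mouse Cdk1 has the shortest frame of the 10 and a long 3′ UTR of 3355 nt, and mouse Ccnb1 has summed exons of 4217 nt against 2558 nt in human.

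**Figure D2:**
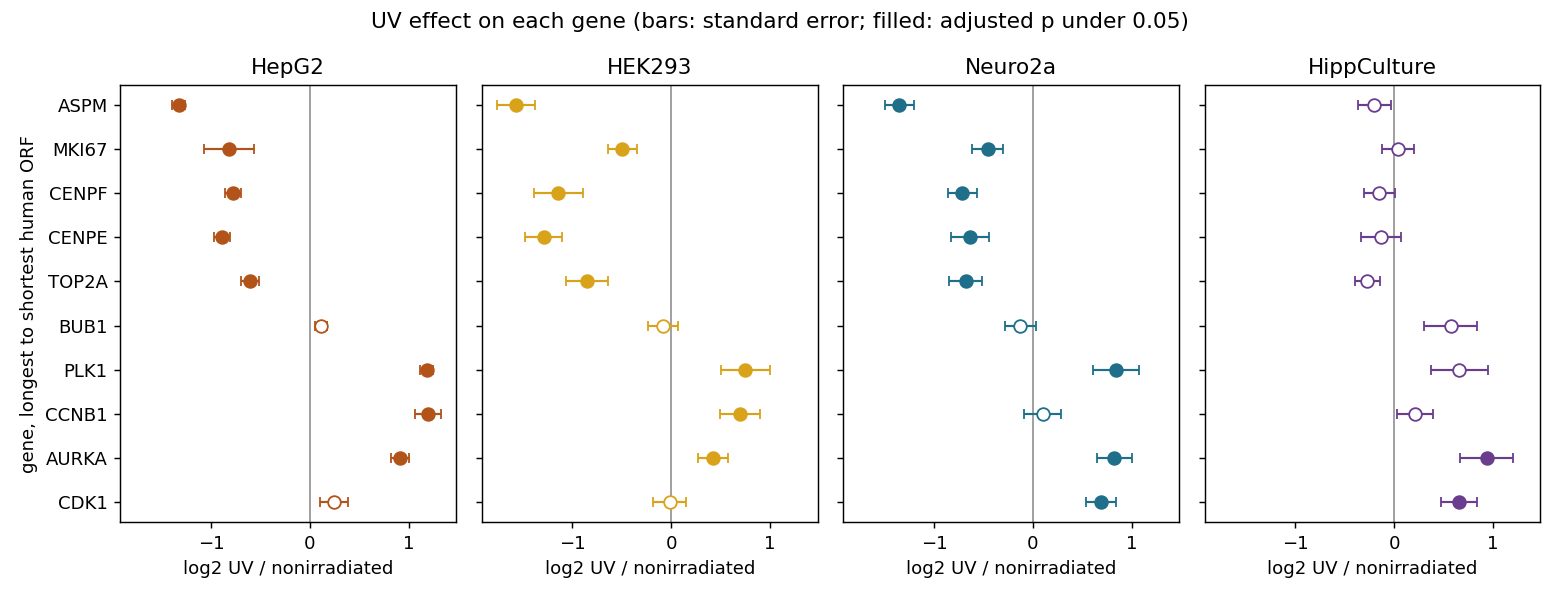
Log2 fold change of irradiated over nonirradiated samples for each gene in the 4 cell types after TMM scaling, with standard errors, from 3 samples per group and with genes ordered by human open reading frame. Filled points passed an edgeR adjusted p of 0.05, and the 5 longest genes lie left of 0 in the 3 lines while the hippocampal culture has only AURKA and CDK1 filled. With library totals alone no gene rose in any of them.

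In the hippocampal culture the 10 genes had 11 to 360 raw counts per sample. By edgeR's quasi-likelihood test after TMM scaling, with all samples, the 0.5 CPM filter and no block, none fell. None did at an unadjusted p under 0.05 or with DESeq2 either, where 25.9% of the 18488 genes tested fell. With library totals alone the 5 genes that fell in the lines fell here too, Mki67 by 0.50, Aspm by 0.75, Cenpe by 0.67, Cenpf by 0.70 and Top2a by 0.81 on the log2 scale (edgeR adjusted p from 1.66e-05 to 0.012). Cdk1 rose from 4.26, 5.28 and 5.97 CPM to 8.11, 7.26 and 8.79 CPM, and Aurka from 2.42, 1.86 and 2.29 CPM to 4.41, 2.62 and 5.17 CPM, with no overlap of the groups. Their log2 fold changes were 0.65 ± 0.18 and 0.93 ± 0.27 (edgeR adjusted p = 0.0052 and 0.0063), and they did not pass with library totals alone, at 0.11 and 0.40. Of all genes tested 26.1% rose. Aurka rests on 13 to 40 raw counts per sample, and its edgeR adjusted p was 0.077 without irradiated replicate 3. The 6 neural progenitor markers summed to 331 to 406 TPM in the nonirradiated and 463 to 476 TPM in the irradiated samples. They did not move together, since the mean TPM of Hes5, Vim, Pax6 and Eomes was higher after irradiation and that of Sox2 and Nes lower. The part of progenitor cells in the values of the 10 genes was not tested.

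None of these 5 genes passed in the culture after TMM scaling with all samples, the filter of 0.5 CPM in nonirradiated samples and no block. Aspm had 12.02, 9.73 and 8.66 CPM in the nonirradiated samples and 10.1, 8.27 and 8.01 CPM in the irradiated samples, and the groups overlapped. Its log2 fold change was -0.20 ± 0.17, and those of Cenpf, Cenpe and Mki67 were -0.15 ± 0.16, -0.13 ± 0.20 and 0.04 ± 0.17 (edgeR adjusted p = 0.32, 0.43, 0.60 and 0.86). Top2a was at -0.27 ± 0.13 (edgeR adjusted p = 0.087), with 34.9, 25.9 and 34.6 CPM and 29.9, 21.6 and 26.9 CPM. Beside library totals alone it passed under 3 settings, with an edgeR adjusted p of 0.037 when every gene with a count was kept, 0.030 when only genes with at least 10 counts in every sample were kept and 0.015 with replicate numbers as a block. Plk1, Bub1 and Ccnb1 had log2 fold changes of 0.66 ± 0.29, 0.57 ± 0.27 and 0.21 ± 0.18 (edgeR adjusted p = 0.061, 0.082 and 0.34). Top2a passed without nonirradiated replicate 2 or irradiated replicate 1, Plk1 without nonirradiated or irradiated replicate 1, and Bub1 without irradiated replicate 2 (edgeR adjusted p = 0.011 to 0.039).

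The difference in UV effect between Neuro2a and the hippocampal culture was tested itself, in the fit of all 12 mouse libraries. The effect was more negative in Neuro2a for Aspm, by 1.28 ± 0.23 on the log2 scale, and for Cenpf, by 0.70 ± 0.23 (edgeR adjusted p = 2.11e-04 and 0.036), 2 of 10 genes where 14.7% of all genes tested were. At an unadjusted p under 0.05 there were 6, with the replicate number as a block within each cell type also 6, and with DESeq2 there was 1. The 14.7% belongs to the unblocked edgeR test at an adjusted p of 0.05, and shares under these other settings are not given here. None was more positive in Neuro2a, as 3.08% of all genes were, and the 8 others had edgeR adjusted p from 0.070 to 1.00. Cenpf lost its call without Neuro2a nonirradiated replicate 1 or 2 or irradiated replicate 3, or without hippocampal nonirradiated replicate 2 or 3 or irradiated replicate 1 or 3 (edgeR adjusted p = 0.054 to 0.15). Depth of the 10 genes differed with the cell type, since raw counts were 74 to 9785 in Neuro2a.

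Between HepG2 and HEK293 no difference in UV effect passed for any of the 10 genes. The differences, HepG2 minus HEK293, ran from -0.47 for MKI67 to 0.35 for CCNB1 on the log2 scale, with edgeR adjusted p from 0.36 to 0.94. No gene had an unadjusted p under 0.05, DESeq2 called none, and among all 23830 genes 3.50% were more negative and 1.23% more positive in HepG2. The standard errors of these differences were 0.17 to 0.30 on the log2 scale.

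The contrast of long with short members was taken as given by the rule, with ASPM, CENPF and MKI67 as long. Their mean log2 fold change minus that of the other 7 was -1.28 for HepG2, -1.02 for HEK293, -0.98 for Neuro2a and -0.48 for the hippocampal culture. In each sample, the mean log2 CPM of the long genes minus that of the others was 1.19, 0.65 and 0.76 in nonirradiated and -0.37, -0.43 and -0.36 in irradiated HepG2, and 1.05, 1.43 and 1.37 against 0.06, 0.31 and 0.44 in HEK293. In Neuro2a it was 1.22, 1.23 and 1.28 against 0.13, 0.30 and 0.41, and in the hippocampal culture 1.36, 1.26 and 1.25 against 0.99, 0.88 and 0.74. Every irradiated sample lay below every nonirradiated sample of its cell type, and the scaling of the libraries cancels in this difference, apart from the pseudocount. CENPE is counted as short by the rule although its summed exons are 9444 nt in human and 8620 nt in mouse. With CENPE among the long genes the contrast was -1.46, -1.28, -1.06 and -0.57 in the same order.

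**Figure D3:**
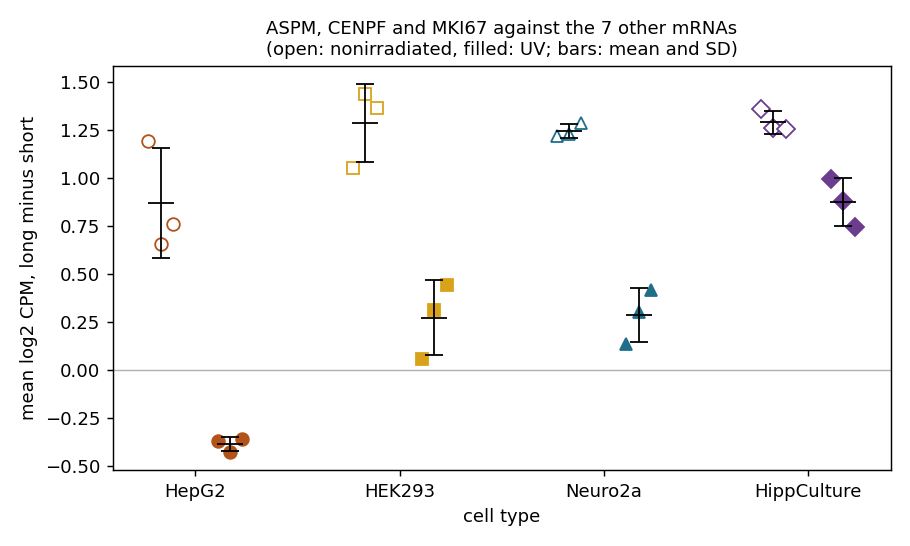
Mean log2 CPM (pseudocount 0.5) of ASPM, CENPF and MKI67 minus that of the 7 other genes in each sample, for nonirradiated (open) and irradiated (filled) samples of the 4 cell types, with mean and SD of 3 samples. All irradiated samples are lower, and those of HepG2 fall below 0 at -0.43 to -0.36.

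The relation with length was found over protein-coding genes at large and not only over these genes. Noncoding RNAs were not examined for it here, and for lncRNAs the paper reported none. Over protein-coding genes, Spearman's correlation of summed exon length with the UV log2 fold change was -0.48 in HepG2 (13735 genes), -0.51 in HEK293 (14424), -0.53 in Neuro2a (13119) and -0.51 in the hippocampal culture (13977), a description across genes that share the same libraries. Over the 10 genes it was -0.87, -0.77, -0.92 and -0.83. For 3′ UTR length the correlation over protein-coding genes was -0.45, -0.48, -0.43 and -0.45 in the same order. The paper reported a mild correlation of 3′ UTR length with the decrease and no strong one for frame length. Human ASPM has a 3′ UTR of 200 nt. In HepG2 the median log2 fold change was 1.14 for mRNAs below 3000 nt, 0.32 from 3000 to 6000 nt, -0.25 from 6000 to 9000 nt and -0.69 at 9000 nt or more, and 67.7% of the last class fell. The last class had medians of -0.66 in HEK293, -0.88 in Neuro2a and -0.42 in the hippocampal culture, and 54.9%, 69.6% and 59.7% of it fell.

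Some of the genes lay far from the median of mRNAs of like length, which was described and not tested. ASPM was at the 11.8 percentile of mRNA log2 fold changes in HepG2, the 4.38 percentile in HEK293 and the 11.1 percentile in Neuro2a, while MKI67, also in the longest class, was at 20.8, 30.2 and 34.7. TOP2A had -0.61 in HepG2 and -0.85 in HEK293 with 6437 nt, below the medians of its class, -0.25 and -0.34. Mouse Top2a had -0.68 in Neuro2a and -0.27 in the hippocampal culture, above the medians of the longest class, -0.88 and -0.42. Aspm, at -0.20 in the culture, was above that median too. PLK1 had 1.18 in HepG2 and 0.75 in HEK293 with 4760 nt, above the class medians of 0.32 and 0.13. Mouse Cdk1 with 4934 nt had 0.69 in Neuro2a, where its class had a median of -0.01, and 0.65 in the hippocampal culture, where it had 0.08. Summed exons cover every annotated transcript, and mouse Top2a has 9013 nt of exons around a frame of 4584 nt. Of its exon bases 1.35% are shared with a snoRNA gene, Gm23451, on the same strand.

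**Figure D4:**
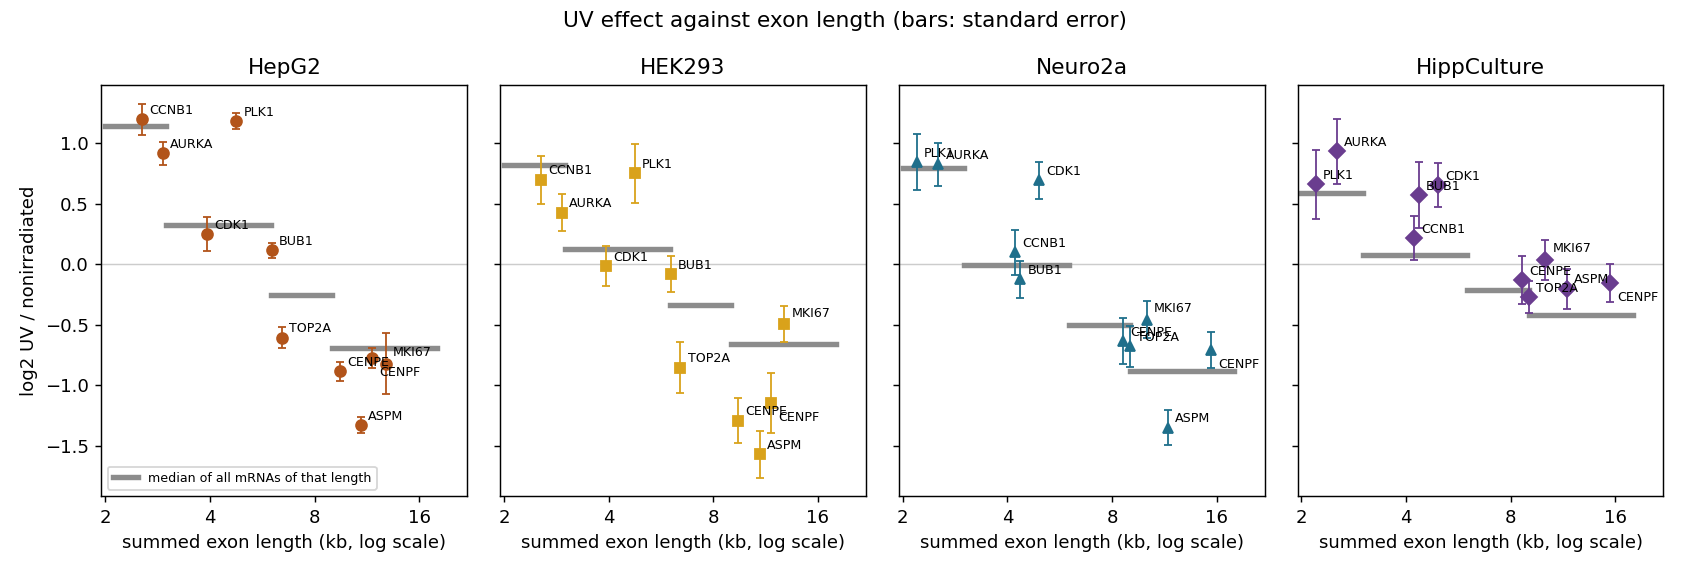
UV log2 fold change of each gene with its standard error after TMM scaling against summed exon length in kb on a log axis, in the 4 cell types. Grey bars give the median of all mRNAs in 4 length classes, and ASPM lies below the bar of its class in the 3 lines, with PLK1 (human lines) and Cdk1 (mouse cells) above theirs.

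The wider cell cycle machinery was described with 122 further genes in 9 lists. In Neuro2a against the hippocampal culture, both nonirradiated, 109 of the 119 found in mouse were higher and 7 lower, with a median log2 difference of 2.90 against 0.05 over all genes tested. All 22 DNA replication genes and all 16 kinesin and spindle genes were higher, with Cdc6, which loads the replicative helicase, at 4.30 ± 0.23 and Kif20b at 4.49 ± 0.17. Racgap1, a cytokinesis regulator, had the largest difference at 5.04 ± 0.12. The 7 lower genes were Cdk6, Pkmyt1, Zwint, Fzr1, Cdkn1c, Cdkn2d and Rbl2, with Cdk6 at -3.89 ± 0.46 and Cdkn1c, a CDK inhibitor, at -3.00 ± 0.55. Zwint, a kinetochore protein gene, was at -1.69 ± 0.10, and Fzr1, an activator of the anaphase-promoting complex, at -0.51 ± 0.12.

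Upon UV irradiation genes of these lists went both ways. In HepG2, 32 of 121 tested fell and 63 rose (median log2 fold change 0.29, against 0.17 over all mRNAs), where 34.2% of mRNAs fell and 45.9% rose. In HEK293 26 of 122 fell and 40 rose, against 25.8% and 27.9% of mRNAs, and 40 fell with replicate numbers as a block. In Neuro2a 34 of 117 fell and 36 rose, against 31.5% and 33.3% of mRNAs, so that the lists were near the background there. In the hippocampal culture 7 of 119 fell and 43 rose, against 24.9% and 30.9%. With library totals alone only 5, 7, 2 and 5 rose in the 4 cell types. These shares were set side by side and not tested. The shares of mRNAs are those of the unblocked test after TMM scaling. They give no background for the block or for library totals alone.

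Of the 22 DNA replication genes 14 rose and 3 fell in HepG2, and 12 rose and 5 fell in HEK293. In Neuro2a 9 rose and 2 fell, and in the hippocampal culture 14 rose and none fell past the threshold. Of the 12 cell cycle transcription regulators 6 fell and 4 rose in HepG2, 5 fell and 2 rose in HEK293, 8 fell and none rose in Neuro2a, and 2 fell and 1 rose in the hippocampal culture. The shares of all mRNAs above are the background for these counts, and neither list was tested as a group. The log2 fold change of E2F3 was -1.57 ± 0.20 for Neuro2a, -1.16 ± 0.13 for HepG2, -1.12 ± 0.21 for HEK293 and -0.86 ± 0.15 for the hippocampal culture.

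Of the 11 condensin and cytokinesis genes 6 fell and 3 rose in HepG2, and 6 fell and 2 rose in Neuro2a. In HEK293 3 fell and 1 rose, and in the hippocampal culture 2 fell and 3 rose. The shares of all mRNAs above are the background here too. Smc2 was at -1.54 ± 0.18 and Ncapd2 at 2.13 ± 0.15 in Neuro2a, and Ncapd2 was at 1.49 ± 0.10 in the hippocampal culture. Human NCAPD2 did not pass, at 0.13 ± 0.07 in HepG2 and -0.15 ± 0.12 in HEK293 (edgeR adjusted p = 0.11 and 0.34). KNL1, a large kinetochore scaffold of 10250 nt in human, fell by 1.10 ± 0.08 in HepG2 and 1.34 ± 0.14 in HEK293, and mouse Knl1 by 1.46 ± 0.20 in Neuro2a. In the hippocampal culture Knl1 was at -0.13 ± 0.25 (edgeR adjusted p = 0.70). UBE2S, which extends ubiquitin chains for the anaphase-promoting complex, rose by 2.31 ± 0.07 in HepG2, 1.67 ± 0.17 in HEK293 and 1.62 ± 0.14 in Neuro2a. In the hippocampal culture it rose by 1.19 ± 0.08. CDK6, with 12260 nt of exons in human, fell by 2.23 ± 0.09 in HepG2 and 2.41 ± 0.15 in HEK293, and CDK4, with 3168 nt, rose by 1.44 ± 0.08 and 1.16 ± 0.15.

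Other genes with the pattern of the 10 were sought over the 12 samples of each species, by Pearson's r with the mean standardised log2 CPM of the 10. In mouse the closest of 20930 genes were Nek2, Rad50, Kif4, Gata4 and Smc4, with r from 0.996 to 0.998 over 12 points that fall into 2 cell types. In human the closest of 23820 genes were PLS1, 3 genes without a symbol and VN1R1, with r from 0.948 to 0.964, and none of these belonged to the cell cycle lists.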

How the data were processed

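The authors removed ribosomal RNA, made TruSeq libraries, mapped reads to hg38 or mm10 with TopHat2 2.1.1, and deposited raw counts per gene made with featureCounts (1.5.3 for HepG2, 1.6.1 for the others, per the file headers) on GENCODE 28 or M17 exons. A read lying over more than 1 gene added to the count of every such gene, and no strand option was set. The labels name a stranded kit and the methods another, so strand is taken as unused. Groups come from the titles. The study calls its triplicates biological, and whether they were separate cultures is not given in the sources used here, so p-values measure the spread between these samples, which may be in part technical. The 10 genes and the other lists were chosen with earlier results of these data known.

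Counts were analysed in R 4.3.3 with edgeR 4.0.16 (TMM, quasi-likelihood test, Benjamini-Hochberg adjustment over all genes tested, threshold 0.05). Tested were genes with a mean of at least 0.5 CPM in nonirradiated samples. Each cell type was fitted alone for the UV effect. Baselines and differences of UV effects came from fits of the 12 libraries of a species. SE is the log2 fold change over the square root of F. Gene symbols and frame lengths are from GENCODE 44 and M21. TPM and per-sample differences of log2 CPM (pseudocount 0.5) were not tested. The named genes are the 10, in each other list the called gene with the lowest and the highest log2 fold change, and the 5 genes per species closest to the 10. Further genes, such as Zwint, were named because a count was small or for their values. Alternatives were DESeq2 1.42.0 as test or for size factors, library totals alone, 3 filters, a replicate block and leaving out each sample. Same-numbered samples deviated together in HEK293 (r 0.37 to 0.65) and Neuro2a (r 0.10 to 0.29), from the data alone. They did so weakly in the hippocampal culture (r 0.057 to 0.14) and not in HepG2. The code was tested on simulated data. Motif counts, summaries and figures used Python 3.11.15, pandas 2.3.3 and matplotlib 3.10.9.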

Additional observations from a re-analysis of the deposited data

Results flagged for a closer look

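The UV effect on Aspm differed between Neuro2a and the hippocampal culture by -1.28 on the log2 scale, with -1.35 ± 0.14 in Neuro2a and -0.20 ± 0.17 in the culture (SE, n = 3 per group; edgeR interaction term, adjusted p = 2.11e-04), and this call held without any single sample. For Cenpf the difference was -0.70, with -0.71 ± 0.15 and -0.15 ± 0.16 (edgeR adjusted p = 0.036), and its call was lost with DESeq2 and without any of 7 of the 12 samples. With DESeq2 size factors it was at -0.47 (edgeR adjusted p = 0.18). Both differences come from the fit of all 12 mouse libraries, and the single values from separate fits with their own scaling. The single values therefore need not subtract to the difference.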

How the results depend on the processing

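Under library totals alone, log2 fold changes turned negative for CCNB1 (-0.11), CDK1 (-1.06), PLK1 (-0.12), AURKA (-0.39) and BUB1 (-1.19) in HepG2, for CCNB1 (-0.072), PLK1 (-0.031) and AURKA (-0.33) in HEK293, for Ccnb1 (-1.09), Cdk1 (-0.50), Plk1 (-0.34) and Aurka (-0.37) in Neuro2a and for Mki67 (-0.50) and Ccnb1 (-0.32) in the hippocampal culture, and the HepG2 over HEK293 differences of AURKA (-0.11) and BUB1 (-0.46) turned too. That scaling gave 8, 8 and 5 fallen genes in HepG2, Neuro2a and the hippocampal culture, 0 risen in all 4 cell types, 1 higher in HepG2 than HEK293, 7 more negative in Neuro2a than in the culture, and 102, 75, 96 and 34 fallen and 5, 7, 2 and 5 risen genes of the other lists in HepG2, HEK293, Neuro2a and the culture. The part of composition in this was not tested. Shares of all genes under that scaling are not given here, so these counts stand without a background.

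With at least 10 counts in every sample, CDK1 (-0.022) and BUB1 (-0.16) in HepG2, Ccnb1 (-0.036) in Neuro2a and Mki67 (-0.049) in the culture changed sign, 1 gene rose in HEK293 and 1 fell in the culture. BUB1 passed as fallen in HepG2 under that filter (edgeR adjusted p = 0.024). Keeping every gene with a count, 1 fell in the culture and 5 were more negative in Neuro2a. With DESeq2 as test or for size factors that count was 1. With the replicate block it was 6, 1 gene fell in the culture and 40 of the other lists fell in HEK293, and no other call on the 10 genes changed. CENPE among the long genes gave -1.28 in HEK293. The cause was not tested. Shares of all genes under these settings are not given here, so the counts stand without a background.

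Leaving out single samples moved the fallen count in the culture from 0 to 1, the risen count there from 1 to 3 and in HEK293 from 0 to 3, the count more negative in Neuro2a from 1 to 6, and that more positive in HepG2 from 0 to 1. Log2 values that crossed 0 were BUB1 (-0.032 to 0.17) and MKI67 (-0.54 to 0.079) between the nonirradiated human lines, BUB1 (-0.19 to 0.0041) and CDK1 (-0.11 to 0.14) upon UV in HEK293, Bub1 (-0.28 to 0.0049) and Ccnb1 (-0.15 to 0.28) in Neuro2a, and Cenpe (-0.33 to 0.0083) and Mki67 (-0.13 to 0.22) in the culture. In HepG2 (r -0.024 to 0.0070) the samples share only a replicate number. Same-numbered samples of the hippocampal culture had r of 0.057 to 0.14, and differently numbered ones -0.11 to 0.025, so that a weak pairing may hold there. The 10 genes had 11 to 360 counts per sample in the hippocampal culture and standard errors of 0.13 to 0.29, against 0.14 to 0.23 in Neuro2a. The part of depth in the hippocampal results was not tested.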
